A study of Mus musculus with 6 samples.

Results

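The genes described are 8 cadherins of mesenchyme and muscle, *Cdh2*, *Cdh3*, *Cdh4*, *Cdh6*, *Cdh10*, *Cdh11*, *Cdh13*, and *Cdh15*, chosen by symbol from the 23997 genes of the expression table. All 8 were listed there. RNA-Seq was carried out on the ductus arteriosus (DA), the fetal artery between the pulmonary artery and the aorta, of untreated C57BL/6 mouse embryos at E17.5. The 3 libraries of wild-type littermates (WT 0, WT 1, and WT 2) were compared with 3 libraries of *Prdm6*f/f; *SM22-Cre* embryos (KO 0, KO 1, and KO 2). In the latter, both alleles of *Prdm6* are floxed and *SM22-Cre* drives Cre-recombinase in smooth muscle cells (SMCs). Cells in which the driver was never on keep the gene. The labels do not say whether WT embryos carried Cre or a floxed allele, or whether tissue was pooled. They also do not say that libraries came from separate embryos, so that p-values measure only the spread between these libraries.

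Classical cadherins are calcium-dependent adhesion molecules that bind mostly to cadherins of the same kind on the next cell. Their cytoplasmic tails bind β-catenin and p120-catenin, and α-catenin links the complex to actin. Type I cadherins include N-cadherin (*Cdh2*), P-cadherin (*Cdh3*), R-cadherin (*Cdh4*), and M-cadherin (*Cdh15*), and type II cadherins include *Cdh6*, *Cdh10*, and *Cdh11*. T-cadherin (*Cdh13*) has related extracellular repeats but no cytoplasmic tail, and is held in the membrane by a lipid anchor.

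The values were FPKM, which divide the reads of a gene by its transcript length and by the size of the library, so that levels can be compared between genes. Fold changes are on the scale of log2(FPKM + 0.1), which understates the change of low genes. The files hold no counts, so total depth is unknown. The most common ratio of low FPKM values between libraries put relative depth at 0.927 to 1.19 times that of WT 1. That ratio also reflects any scaling between libraries. Genes listed at 0 numbered from 8338 in KO 2 to 11886 in WT 2. *Prdm6* FPKM was 19.8 to 48.4 in WT and 15.4 to 48.6 in KO libraries, so that it did not separate the labels, and the floxed part is not given in the sources used here. By qRT-PCR, the authors report reduced *Prdm6* in the DA of such embryos. KO 0 held both *Xist* at 81.0 FPKM, which is expressed from the inactive X of female cells, and Y-linked *Ddx3y* at 26.4 FPKM, whereas each of the other 5 libraries held one of them at 0.383 FPKM or less. WT 1 and KO 2 stood apart by heart muscle transcripts, with 1292 and 1370 FPKM summed over 10 markers against 59.3 to 542 in the other libraries. Over 8 erythroid markers, KO 0 and KO 1 held 13195 and 23613 FPKM, against 3742 to 7493 FPKM in the other libraries. The SMC marker *Acta2*, smooth muscle actin, was at 396 to 2262 FPKM in the 6 libraries.

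*Cdh11* was the most abundant of the 8 in every library, with a mean of 143 FPKM over the 6 libraries. *Cdh3*, *Cdh13*, and *Cdh2* followed at 41.5, 38.7, and 35.2 FPKM, then *Cdh6* at 13.0, *Cdh10* at 3.0, and *Cdh4* at 1.73 FPKM. *Cdh15* was close to 0, with a mean of 0.229 FPKM. The ranges of *Cdh3* and *Cdh13*, of *Cdh13* and *Cdh2*, and of *Cdh2* and *Cdh6* overlapped, as did those of *Cdh10* and *Cdh4*. *Cdh3* exceeded *Cdh13*, and *Cdh13* exceeded *Cdh2*, in only 4 of 6 libraries each. The steps *Cdh11* over *Cdh3*, *Cdh6* over *Cdh10*, and *Cdh4* over *Cdh15* had no overlap of ranges.

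**Figure D1:**
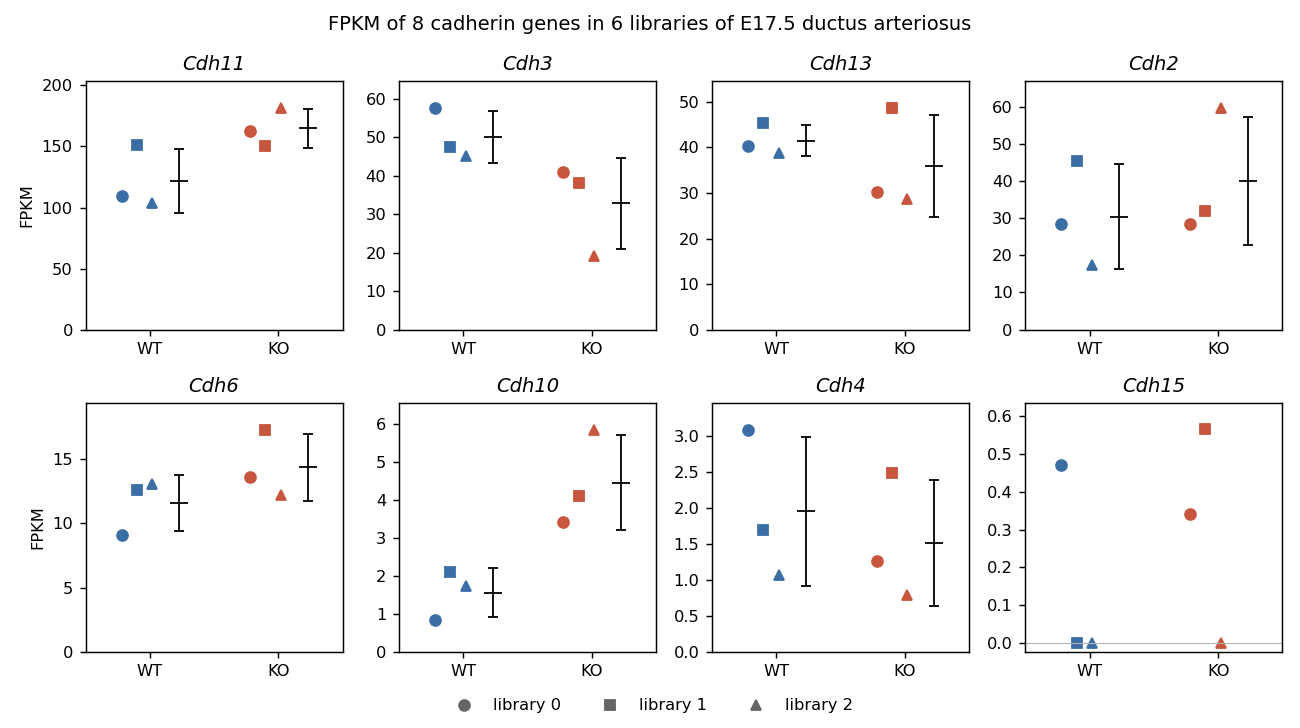
FPKM of each of the 8 cadherins in the 3 WT and 3 KO libraries, with a linear axis of its own in each panel. Points are libraries and bars are the mean ± SD of 3 libraries (none for *Cdh15*, listed at 0 in 3 libraries). The groups do not overlap for *Cdh3*, lower in KO, and for *Cdh10*, higher in KO.

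Between the groups, no cadherin of the 8 passed the adjusted threshold. *Cdh10* and *Cdh11* had higher values in KO libraries, at a fitted 2.85 and 1.37 times the WT level, and *Cdh3* had lower values, at 0.625 times the WT level. Of the 8 genes, 7 had a mean of at least 1 FPKM and were tested with limma, 0 of 7 had an adjusted p under 0.05, and 2 of 7 had an unadjusted p under 0.05. Over all 12955 genes tested, 0.00772% passed the adjusted threshold, which is 1 gene, the ribosomal RNA precursor *Rn45s*, and 8.28% had an unadjusted p under 0.05. From bulk RNA-Seq of the E17.5 DA of this genotype, the authors report many more differentially expressed genes, with *Tagln* and *Myh11* among the most lowered. Their analysis used Cuffdiff and R and was not repeated here. The KO libraries were all above the WT libraries for 1 of the 7 cadherins against 8.21% of all genes tested, and all below for 1 of the 7 against 7.84%. *Rn45s* was listed at 0 in all 3 WT libraries and was at 3060, 3806, and 4520 FPKM in KO 0, KO 1, and KO 2. It thus separated the groups completely, alongside the differences of *Cdh3*, *Cdh10*, and *Cdh11*, and what part RNA quality or library preparation has in them was not tested. An exact 0 can be a failed estimate in these files, so the WT values of *Rn45s* are uncertain. The median log2 fold change was 0.31 over the 7 cadherins and 0.07 over all genes tested.

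**Figure D2:**
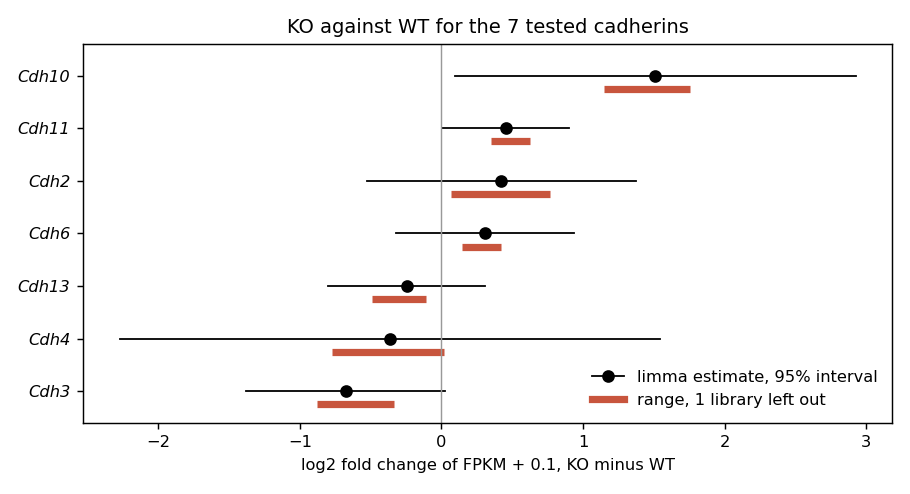
Log2 fold change of FPKM + 0.1, KO minus WT, for the 7 tested cadherins, with the 95% interval from limma. The intervals of *Cdh10* and *Cdh11* lie just above 0, that of *Cdh3* reaches 0.03, and no gene passed the adjusted threshold.

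Among the type II cadherins, *Cdh11*, also called OB-cadherin and a marker of mesenchymal and osteoblast-lineage cells, was at 110, 152, and 104 FPKM in WT 0, WT 1, and WT 2 and at 163, 150, and 182 FPKM in KO 0, KO 1, and KO 2. WT 1 lay just above KO 1, and the groups did not otherwise overlap. The means were 122 ± 26.0 FPKM in WT and 165 ± 16.0 FPKM in KO libraries (SD, n = 3 each). The log2 fold change was 0.45 (standard error 0.19, 95% interval 0.01 to 0.90), with an unadjusted p of 0.0473 and an adjusted p of 0.600 from limma. The exact permutation test gave p = 0.2. Without WT 1 the log2 fold change was 0.62, and without KO 0 it was 0.46. In GRCm38, the build also named mm10, *Cdh11* occupies chromosome 8 from 102632095 to 102785642.

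*Cdh10*, a type II cadherin known mainly from the brain, was at 0.847, 2.10, and 1.72 FPKM in the WT libraries and at 3.43, 4.09, and 5.84 FPKM in the KO libraries. Every KO library was above every WT library. The means were 1.56 ± 0.644 and 4.45 ± 1.25 FPKM (SD, n = 3 each), which is low beside *Cdh11*. The log2 fold change was 1.51 (standard error 0.61, 95% interval 0.09 to 2.93), with an unadjusted p of 0.0395 and an adjusted p of 0.591 from limma. The exact permutation test gave p = 0.1, the smallest that 3 libraries against 3 allow. On log2(FPKM + 1) the change was 1.10, since the added value weighs more on a low gene. *Cdh6*, or K-cadherin, known from kidney and neural crest, was at 9.13, 12.6, and 13.1 FPKM in WT and at 13.6, 17.3, and 12.2 FPKM in KO libraries. The groups overlapped, and its log2 fold change was 0.31 (95% interval -0.32 to 0.94, adjusted p = 0.735 from limma). It was 0.15 without WT 0 and 0.17 without KO 1.

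*Cdh6* and *Cdh10* both lie in a run of type II genes on chromosome 15. The groups overlapped for *Cdh6* and did not for *Cdh10*, but neither gene passed the adjusted threshold. Whether their changes differ from each other was not tested. The promoters of these genes are shown side by side as a description. The RefSeq table (GRCm38.p6) held 250 bases before to 50 after the annotated start for 3 of the 8 genes, the other being *Cdh15*. The *Cdh10* window is chr15:18820079-18820378 on the plus strand and the *Cdh6* window is chr15:13173626-13173925 on the minus strand. Both are printed 5′ to 3′ on the strand of the gene. In the gene annotation *Cdh10* begins at 18818947, so its window lies at a start inside the gene. The 5′ end of *Cdh6*, at 13173675, lies within its window. The windows thus differ in their place in the gene, which limits a comparison of them. Capitals mark each E-box, CANNTG, which reads the same on both strands and is the core bound by many helix-loop-helix factors and, in some forms, by EMT factors.
Cdh10: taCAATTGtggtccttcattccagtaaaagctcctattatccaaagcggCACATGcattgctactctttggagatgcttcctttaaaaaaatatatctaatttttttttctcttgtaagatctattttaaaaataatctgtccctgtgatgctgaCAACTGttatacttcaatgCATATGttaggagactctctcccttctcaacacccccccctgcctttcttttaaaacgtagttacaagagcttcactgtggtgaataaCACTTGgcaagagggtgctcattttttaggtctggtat
Cdh6: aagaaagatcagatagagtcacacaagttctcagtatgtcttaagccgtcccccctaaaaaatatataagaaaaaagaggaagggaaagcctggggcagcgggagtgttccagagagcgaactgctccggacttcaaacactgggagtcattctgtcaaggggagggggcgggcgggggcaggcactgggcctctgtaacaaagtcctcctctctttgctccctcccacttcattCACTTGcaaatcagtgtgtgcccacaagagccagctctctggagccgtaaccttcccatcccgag
The *Cdh10* window held 5 E-boxes, at 248, 201, 95, and 76 bases before and 13 bases after the start, and the *Cdh6* window held 1, at 15 bases before it. All promoters in the table had a median of 1, and 72.3% of the 32851 held at least 1. GC content was 37.7% with 2 CpG dinucleotides for *Cdh10* and 53.0% with 8 for *Cdh6*, beside medians of 52.7% and 7. CAGGTG or CACCTG, the E-box form that Snail and Zeb proteins bind, was in neither window and in 20.2% of all promoters. The CArG box, the SRF element of many SMC genes, was in neither window and in 1.63% of all promoters. A match to these letters is a description and not a binding site.

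Of the type I cadherins, *Cdh3*, known from placenta and basal epithelium, was at 57.8, 47.5, and 45.2 FPKM in the WT libraries and at 41.1, 38.1, and 19.3 FPKM in the KO libraries. Every KO library was below every WT library, and KO 2 was the lowest of the 6. The means were 50.2 ± 6.68 and 32.8 ± 11.8 FPKM (SD, n = 3 each). The log2 fold change was -0.68 (standard error 0.30, 95% interval -1.38 to 0.03), with an unadjusted p of 0.0573 and an adjusted p of 0.609 from limma. The exact permutation test gave p = 0.1. KO 2 carried much of the size, and without it the log2 fold change was -0.33, whereas without KO 0 it was -0.88. *Cdh3* lies on chromosome 8 from 106510891 to 106557297, 46.1 kb from *Cdh1* with 1 annotated protein-coding gene, *Gm10073*, between them. *Cdh1*, the E-cadherin gene of epithelia, was at 0.987 FPKM or less in all 6 libraries.

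*Cdh2*, the cadherin of cardiac muscle, neurons, and much mesenchyme, varied most, relative to its mean, among the 4 most abundant members. It was at 28.5, 45.4, and 17.3 FPKM in WT and at 28.3, 31.9, and 59.7 FPKM in KO libraries. The groups overlapped over most of their range, and the highest library of each group, WT 1 and KO 2, was the one high in heart muscle markers. The order did not hold below these, since WT 2, at 542 FPKM of those markers, was lowest in *Cdh2*. Over the 6 libraries, Spearman's rho of *Cdh2* was 0.49 with the heart muscle sum and 0.60 with the skeletal muscle sum. The log2 fold change was 0.42 (standard error 0.41, 95% interval -0.53 to 1.37, adjusted p = 0.754 from limma). It was 0.44 without WT 1 and KO 2, 0.77 without WT 1 alone, and 0.09 without KO 2 alone. *Cdh4*, known from the developing retina, was at 3.09, 1.70, and 1.07 FPKM in WT and at 1.27, 2.49, and 0.790 FPKM in KO libraries. Its log2 fold change was -0.36 (95% interval -2.27 to 1.55, adjusted p = 0.896 from limma), and without WT 0 it was 0.02.

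*Cdh15*, which marks myoblasts and muscle satellite cells, was listed at 0 in WT 1, WT 2, and KO 2, and at 0.471, 0.341, and 0.566 FPKM in WT 0, KO 0, and KO 1. It was not tested. An exact 0 can be a failed estimate in these files, since 34 to 61 of the 3506 genes with a mean of at least 20 FPKM were at 0 in a given library. *Myod1*, the myoblast determination factor, was listed at 0 in all 6 libraries. Summed over 15 skeletal muscle markers, the libraries held 40.0 to 65.1 FPKM in WT and 21.3 to 80.2 FPKM in KO.

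*Cdh13*, a receptor for adiponectin that is abundant in vascular cells, was at 40.4, 45.3, and 38.7 FPKM in WT and at 30.3, 48.7, and 28.7 FPKM in KO libraries. KO 1 was the highest of the 6, and the other 2 KO libraries were the lowest. The log2 fold change was -0.25 (standard error 0.24, 95% interval -0.80 to 0.31, adjusted p = 0.752 from limma), and it was -0.49 without KO 1, -0.15 without KO 0, and -0.11 without KO 2. Its ligand gene *Adipoq* was at 3.04 FPKM in WT 0 and listed at 0 in the other 5 libraries. The adiponectin receptors *Adipor1* and *Adipor2* had log2 fold changes of 0.47 and -0.11, and 0 of the 2 passed the test by limma, with 0 at an unadjusted p under 0.05. *Cdh13* spans 1041.2 kb of chromosome 8, from 118283733 to 119324921.

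Within each library, the share of a cadherin in the summed FPKM of the 8 does not change with scaling between libraries. *Cdh11* made up 43.9%, 49.5%, and 47.0% of the sum in the WT libraries and 57.9%, 51.2%, and 59.0% in the KO libraries. *Cdh3* made up 15.5% to 23.1% in WT and 6.25% to 14.6% in KO, and *Cdh10* 0.339% to 0.779% in WT and 1.22% to 1.89% in KO. None of these 3 shares overlapped between the groups, and the other 5 did. By FPKM, 8.21% of all genes tested were higher and 7.84% lower in KO without overlap, and no such background was computed for shares. Shares of one sum are linked, so a lower *Cdh3* raises the share of the others. The FPKM of *Cdh11* itself overlapped. *Cdh11* exceeded *Cdh3* by 1.90, 3.19, and 2.30 times in the WT libraries and by 3.96, 3.94, and 9.43 times in the KO libraries. The sum itself was 221 to 306 FPKM in WT and 281 to 308 FPKM in KO libraries and overlapped.

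**Figure D3:**
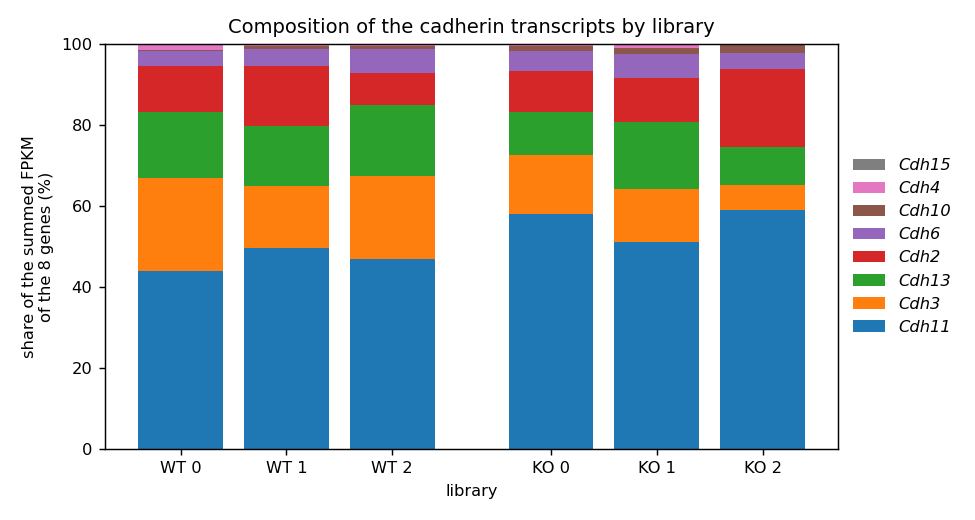
Share of each cadherin, in percent of the summed FPKM of the 8, as 1 stacked bar per library. The *Cdh11* share is at most 49.5% in the WT bars and at least 51.2% in the KO bars, and the *Cdh3* share is smaller in each KO bar than in any WT bar.

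Markers of cell types moved with some of these values. Of 12 marker lists, summed FPKM did not overlap between the groups for 3. Smooth muscle markers were lower in KO, and Schwann cell and glia and neuron markers were higher in KO. Among single genes tested, 8.21% were higher and 7.84% lower in KO without overlap, and no such background was computed for sums. In bulk tissue, fewer cells of a type and less RNA per cell cannot be told apart. The 10 smooth muscle markers summed to 5799, 2904, and 2522 FPKM in WT and to 2415, 1812, and 925 FPKM in KO libraries, and 6 of 10 had an unadjusted p under 0.05, all lower, with 0 past the adjusted threshold in limma. Over all 12955 genes tested, 644 were lower at that p. *Cdh3* followed the same order over the 6 libraries. The 10 Schwann cell and glia markers summed to 20.3 to 49.6 FPKM in WT and to 53.1 to 200 FPKM in KO libraries. Spearman's rho over the 6 libraries was 0.94 between *Cdh10* and this sum and -1 between *Cdh3* and it. The rho of *Cdh10* was as far from 0 with the smooth muscle sum, at -0.94, and was 0.77 with the neuron sum. The 12 neuron markers summed to 27.4 to 38.0 FPKM in WT and to 62.9 to 85.2 FPKM in KO libraries. These orders were singled out after 84 pairs of a cadherin and a list were seen, and they include the difference between the groups. The part of other cell types in the differences of *Cdh3*, *Cdh10*, and *Cdh11* was not tested.

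**Figure D4:**
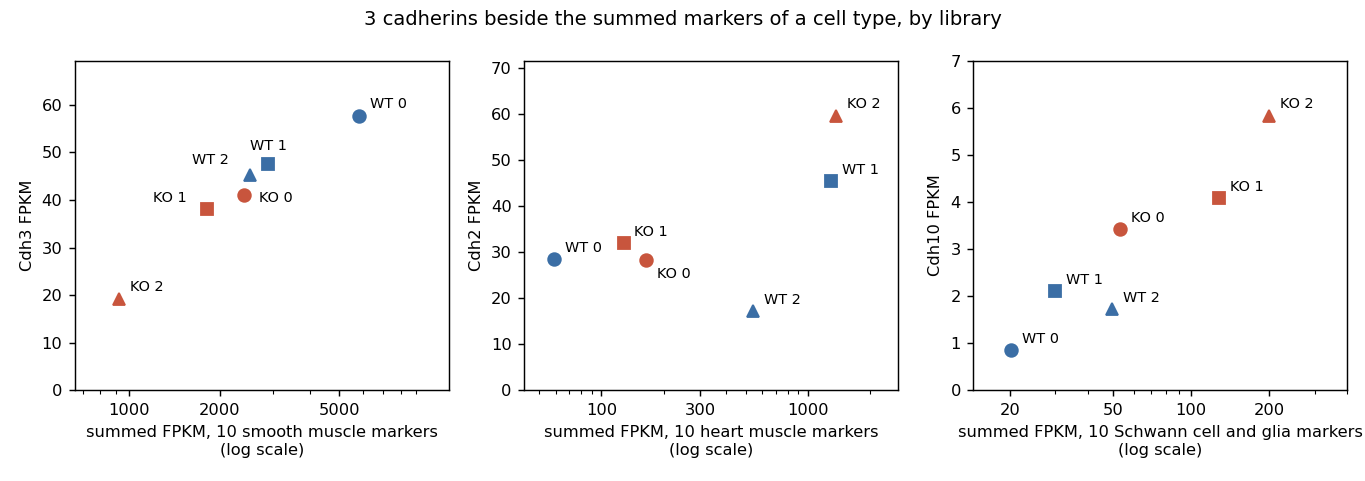
FPKM of *Cdh3*, *Cdh2*, and *Cdh10* (linear axes) against the summed FPKM of 10 smooth muscle, 10 heart muscle, and 10 Schwann cell and glia markers (log axes), 1 point per library. *Cdh3* is lowest and the smooth muscle sum is lowest, at 925 FPKM, in KO 2. *Cdh2* is highest in KO 2 and WT 1 and lowest in WT 2, where the heart muscle sum is 542 FPKM.

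The other classical cadherins were few and mostly low, apart from VE-cadherin (*Cdh5*) of endothelium, at 39.9 to 106 FPKM. Of 11 such genes, 7 were tested, 0 passed the adjusted threshold in limma, and 3 had an unadjusted p under 0.05, 1 of them higher and 2 lower in KO, against 8.28% of all genes tested in either direction. *Cdh19*, a cadherin of Schwann cell precursors that is itself in the Schwann cell list, was at 0.436, 0.868, and 1.55 FPKM in WT and at 2.55, 9.81, and 9.01 FPKM in KO libraries (log2 fold change 2.71, adjusted p = 0.524). The median of the 7 was -0.39, beside 0.07 over all genes tested, and it was 0.29 when genes with a mean of at least 0.1 FPKM were included.

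On chromosome 15, *Cdh6*, *Cdh9*, *Cdh10*, *Cdh12*, and *Cdh18* follow each other with 0 annotated protein-coding genes between neighbours and gaps of 959.5 to 3555.1 kb. *Cdh9*, next to *Cdh10*, was at 1.73, 1.55, and 0.031 FPKM in WT and at 4.42, 5.25, and 3.32 FPKM in KO libraries. *Cdh12*, on the other side, was at 3.93, 3.31, and 7.18 FPKM in WT and at 1.06, 0.374, and 0.599 FPKM in KO libraries. *Cdh18* was at 7.21, 10.3, and 15.9 FPKM in WT and at 5.48, 5.24, and 4.05 FPKM in KO libraries. Thus *Cdh9* and *Cdh10* lay higher and *Cdh12* and *Cdh18* lower in every KO library, with *Cdh6* overlapping. The log2 fold changes were 2.57, 1.51, -2.68, and -1.10 in this order of 4, and their adjusted p from limma ranged from 0.502 to 0.601. Of all genes tested, 8.21% were higher and 7.84% lower in KO without overlap. This grouping by position was not planned, and a pattern along the chromosome was not tested. For *Cdh9*, the log2 fold change was 1.33 without WT 2, which was at 0.031 FPKM. *Cdh9* and *Cdh12* share exonic bases with another annotated gene, so their values are uncertain, whereas none of the 8 cadherins does.

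No gene of the cytoplasmic complex passed the test. Of 12 catenins and anchors, all were tested, 0 passed the adjusted threshold and 0 had an unadjusted p under 0.05 in limma, and the median log2 fold change was 0.00. β-Catenin (*Ctnnb1*) was at 162 to 266 FPKM in WT and at 195 to 284 FPKM in KO libraries, with a log2 fold change of 0.13. α-Catenin (*Ctnna1*), at 105 to 118 FPKM in WT and 107 to 116 FPKM in KO libraries, had a log2 fold change of 0.00 (95% interval -0.33 to 0.33). p120-catenin (*Ctnnd1*) had a log2 fold change of -0.04. *Pkp4*, a p120-related armadillo protein, was the one member of the list without overlap (7.84% of all genes tested were lower without overlap), at 33.6 to 38.0 FPKM in WT and 26.0 to 28.6 FPKM in KO libraries (log2 fold change -0.37, adjusted p = 0.611).

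Nectins, immunoglobulin-like adhesion molecules listed under their older *Pvrl* symbols, had 3 of 4 genes tested, 0 called by limma, 0 at an unadjusted p under 0.05, and a median log2 fold change of 0.06. Of 9 genes for cadherin maturation and shedding, such as the prodomain protease *Furin* (-0.24) and the sheddase *Adam10* (0.29, both log2 fold changes), 0 were called, 0 had an unadjusted p under 0.05, and the median was 0.22. Of 8 transcription factors of epithelial-mesenchymal transition (EMT), 0 were called and 1 had an unadjusted p under 0.05, with a median of 0.01. That is about the share over all genes tested, 8.28%, and is no result about the list. The gene was *Zeb2*, a repressor of *Cdh1*, at 45.7, 56.2, and 52.3 FPKM in WT and at 59.5, 71.7, and 89.1 FPKM in KO libraries. Every KO library was above every WT library, with a log2 fold change of 0.50 (95% interval 0.04 to 0.96, adjusted p = 0.591 from limma). *Snai2* and *Zeb1*, other EMT factors, had log2 fold changes of 0.02 and 0.01.

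**Figure D5:**
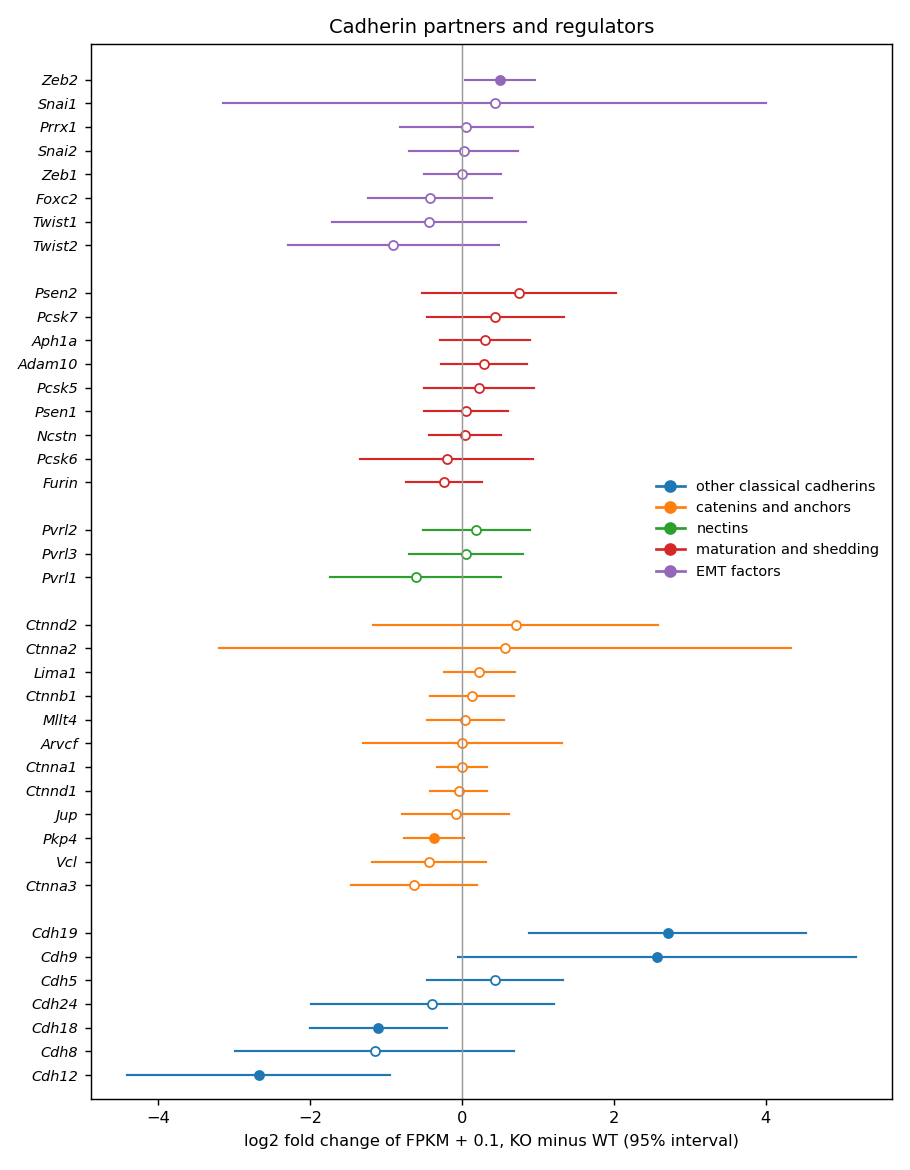
Log2 fold change of FPKM + 0.1, KO minus WT, with the 95% interval from limma, for the tested genes of 5 lists, grouped by colour. Filled points are genes whose groups do not overlap, *Mllt4* is afadin, *Pvrl* genes are nectins, and no gene passed the adjusted threshold.

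For *Cdh11*, the most abundant of the 8, the genes with the most similar values over the 6 libraries, among 9121 genes with a mean of at least 5 FPKM, were *Alms1*, *Phf6*, and *Snora17*. Pearson's r of log2(FPKM + 0.1) was 0.994, 0.992, and 0.989. *Alms1* was at 8.36, 10.9, and 7.94 FPKM in WT and at 12.4, 11.3, and 13.1 FPKM in KO libraries. *Snora17* was listed at 0, which can be a failed estimate, in WT 0 and WT 2. These are the highest of many correlations over 6 libraries that include the difference between the groups, and they are given as a description.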

How the data were processed

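The 6 DA libraries (3 WT and 3 KO, E17.5) were grouped by the sample titles, with 0 columns unmatched. The authors trimmed the reads (minimum quality 30, minimum length 45), used TopHat2 for alignment to mm10, and deposited FPKM per gene and library from Cufflinks and Cuffdiff. Versions, annotation, and scaling between libraries are not given in the sources used here. FPKM holds no counts, so no count test, counting interval, or detection floor was used. Values were taken as log2(FPKM + 0.1), and the 12955 genes averaging at least 1 FPKM were then tested in limma 3.58.1 under R 4.3.3 (two-sided, lmFit, eBayes with the trend of variance on mean, Benjamini-Hochberg adjustment, threshold 0.05). Cuffdiff needs aligned reads and was not repeated. A two-sided exact permutation test, over all 20 ways to divide the libraries, was added for each member. Scripts were tested on simulated data. Gene positions came from the GRCm38 annotation and promoters from RefSeq.

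The genes named are the 8 cadherins, genes of the lists described, *Prdm6*, and the 3 genes most like the most abundant member. *Rn45s*, *Brinp3*, *Xist*, *Ddx3y*, and the order with marker sums were chosen after their values were seen. The members and lists were chosen with earlier results of these data known. The grouping of genes by position on chromosome 15 was not planned. Alternatives covered the pseudocount, filter, scaling, variance model, replicate block, and each library left out. The fit without WT 1 and KO 2 was chosen after seeing the data.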

Additional observations from a re-analysis of the deposited data

How the results depend on the processing

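Across 117 values of the 7 tested cadherins under the alternatives, 116 kept their direction, 1 reversed, and 0 passed the adjusted threshold. The lowest adjusted p was 0.438 from limma, for *Cdh11* without WT 1. The reversal was *Cdh4*, at -0.77 to 0.015 with 1 library left out in turn and at 0.015 without WT 0. The cause was not tested. With 1 library left out in turn, *Cdh3* lay between -0.88 and -0.33, *Cdh10* between 1.15 and 1.76, *Cdh11* between 0.35 and 0.62, *Cdh2* between 0.07 and 0.77, *Cdh6* between 0.15 and 0.42, and *Cdh13* between -0.49 and -0.11 on the log2 scale. *Cdh4* was -1.34 after quantile normalization. *Cdh13* was -0.04 without WT 1 and KO 2. *Cdh4* and *Cdh10* had no value with a mean of at least 5 FPKM, and *Cdh15* was not tested. The number of genes past the adjusted threshold, 1 and higher in KO, was 2 (2 higher) without the mean-variance trend and also without moderation (*Rn45s* and *Brinp3* in both), and 3 (3 higher) without WT 1 and KO 2. With 1 library left out in turn it was 1 to 3, of which 1 to 3 were higher and 0 to 1 lower. It was 3 without WT 1, without KO 0, and without KO 2. The labels do not say whether libraries with the same number are pairs. The deviations of same-numbered libraries correlated at 0.12, -0.08, and -0.01. Such weak correlations over 3 libraries per group cannot settle whether they are. With the replicate block, 1 gene was called, and the adjusted p from limma was 0.551 for *Cdh3*, 0.609 for *Cdh10*, and 0.615 for *Cdh11*. No scaling moved the median of all genes by over 0.1. Without counts, the precision of the low values of *Cdh4*, *Cdh10*, and *Cdh15* is unknown.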
